A study of Rattus norvegicus with 9 samples.

Results

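Rat tibial marrow collected 4 h after the shock-wave time point of day 4 was compared with marrow collected 4 h after that of day 2, in osteotomised rats with and without shock waves. The comparison used 4 single-cell RNA libraries, TO_2d_4h and TOE_2d_4h from day 2 and TO_4d_4h and TOE_4d_4h from day 4, chosen because they shared the hour of collection and put both arms on each side. They were 4 of the 9 samples of the series and held 56567 of the 110487 cells that passed the filters in the 8 libraries analysed here. Every rat, aged 6 to 8 weeks, carried a 3-mm circular osteotomy of the proximal tibia and a 4-mm full-thickness wound of the foot. TO animals had the osteotomy alone, and TOE animals also received radial shock waves at the osteotomy on days 2 and 4, so TOE_2d_4h had been through 1 session and TOE_4d_4h through both. No unoperated marrow stood among these libraries. Each condition was 1 library, the 9 rats of the design were not tied to libraries by the labels, and a difference between days therefore could not be told apart from a difference between the animals or preparations behind the libraries. Values are given for TO first and TOE second on each day.

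After a bone is cut, a blood clot and acute inflammation are followed by the spread of fibroblast-like progenitors from the periosteum and marrow, which lay down a loose matrix rich in type III collagen before cartilage and bone form. Type I collagen dominates bone matrix itself, where osteoblasts add osteocalcin and bone sialoprotein. The marrow around such a cut is mostly blood-forming: B-cell precursors, granulocytes, monocytes and red-cell precursors greatly outnumber the stromal cells that support them. In fresh single-cell preparations, RNA freed from broken cells also enters droplets and gives every cell type a low level of abundant foreign transcripts.

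The 4 libraries held 12983 to 17187 barcodes and 118156481 to 144146202 unique transcript counts (UMIs), with a median of 4522 to 5668 UMIs a barcode, and after filtering 12240 to 16227 cells. Any pair of them shared 44 to 110 barcode sequences, at most 0.783% of a library. The cells fell into 31 clusters, of which 27 were named by markers and 4 were not. Most defining markers were raised in each class, with 12 of 12 in the T/NK-cell-like class, 12 of 12 in the erythroid-like class and 9 of 12 in the dendritic-cell-like class, where Xcr1, Cd209a and Irf4 were not. Marco was at 0 in the macrophage-like class and Cyp11a1 in the mast-cell/basophil-like class. TO_2d_4h stood apart from the others by an unnamed cluster, with a median of 1870 UMIs, whose leading genes mixed myeloid proteases and bone collagens. That cluster went without a name because of the markers among its leading genes and not under the rule on low counts. TO_2d_4h had 1989 of its cells, against 71 in TOE_2d_4h and 1 and 3 on day 4. The B-cell-like cells of TOE_2d_4h lay largely in clusters 4, 5 and 14, with 2733, 2121 and 1649 cells, whereas cluster 5 was the largest in the other libraries, with 2315 to 3114 cells.

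Among cells of ordinary UMI counts, stromal and macrophage-like cells made up a larger share of the 4 h libraries of day 4 than of those of day 2. The mesenchymal-like class, whose cells build connective tissue and bone, was 0.426% and 0.370% of cells on day 2 (63 of 14772 and 60 of 16227 cells) and 1.45% and 1.38% on day 4 (178 of 12240 and 184 of 13328). Both day 4 libraries lay above both day 2 libraries, by 3.41-fold in TO (95% interval for counting error 2.54 to 4.62) and 3.73-fold in TOE (2.78 to 5.08). This depended on how cells of low counts were named. A cluster with a median of 809 UMIs, led by Jchain, Tpm2 and Bglap with Col1a1 among its leading genes, stayed without a name because of its low counts, under a rule chosen once values were known. It held 55 and 738 cells on day 2 and 299 and 287 on day 4. With it counted as mesenchymal-like, the shares were 0.799% and 4.92% on day 2 and 3.90% and 3.53% on day 4, the days overlapped, and the ratio was 4.88 in TO and 0.719 in TOE. Endothelial-like cells, which line vessels, were 0.237% and 0.166% on day 2 and 0.523% and 0.488% on day 4, or 2.21-fold (1.44 to 3.43) and 2.93-fold (1.84 to 4.78) more. With 27 to 65 cells a library, that class was too small for a test of its genes. Macrophage-like cells, the scavengers of the marrow, were 1.29% and 0.653% on day 2 and 2.11% and 3.16% on day 4. Their ratio of day 4 over day 2 was 1.63 in TO (1.35 to 1.98) and 4.84 in TOE (3.90 to 6.04). With a low-count cluster led by C1qa added, which held 58 and 55 cells on day 2 and 49 and 100 on day 4, it was 1.49 and 3.94. An exact permutation test over 4 libraries has only 6 arrangements and cannot give less than p = 0.333, which was its value for each of these 3 classes without the low-count clusters. Dendritic-cell-like and mast-cell/basophil-like shares were also higher in both day 4 libraries, the first by 1.29-fold and 1.05-fold and the second by 2.25-fold and 1.03-fold. In TO the intervals were 1.075 to 1.54 and 1.68 to 3.03. In TOE they were 0.883 to 1.24 and 0.756 to 1.41, so counting error spans no change there. Libraries of other hours did not follow the day. Mesenchymal-like cells numbered 120 of 14166 in TO_2d_0h, 498 of 14107 in TOE_2d_24h, 99 of 13723 in TO_4d_24h and 79 of 11924 in TOE_4d_24h. Macrophage-like cells numbered 316, 560, 125 and 24 in the same libraries.

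Neutrophil-like cells were 11.2% and 6.23% on day 2 and 14.7% and 8.58% on day 4, so the days overlapped although each arm was higher on day 4, by 1.31-fold and 1.38-fold. T/NK-cell-like cells were 0.630% and 0.949% on day 2 and 0.719% and 1.26% on day 4, and the days overlapped as well. B-cell-like cells were 49.6% and 65.98% on day 2 and 55.4% and 54.0% on day 4, and the arms went opposite ways. That depended on the unnamed cells, since over the cells of named classes alone the ratio was 0.984 in TO (0.952 to 1.02) and 0.797 in TOE (0.774 to 0.822). Within that class, pro-B-like cells, the earliest precursors sampled, averaged 5.05% on day 2 and 3.55% on day 4 without overlap, a ratio of 0.760 in TO and 0.651 in TOE. The unnamed cells were 14.4% and 5.43% on day 2 and 2.88% and 2.98% on day 4. Over the cells of named classes alone, a denominator chosen after the data were seen, the mesenchymal-like ratio was 3.01 in TO and 3.64 in TOE. Shares add up to a whole, and a count of cells in the tissue was not part of these data.

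**Figure D1:**
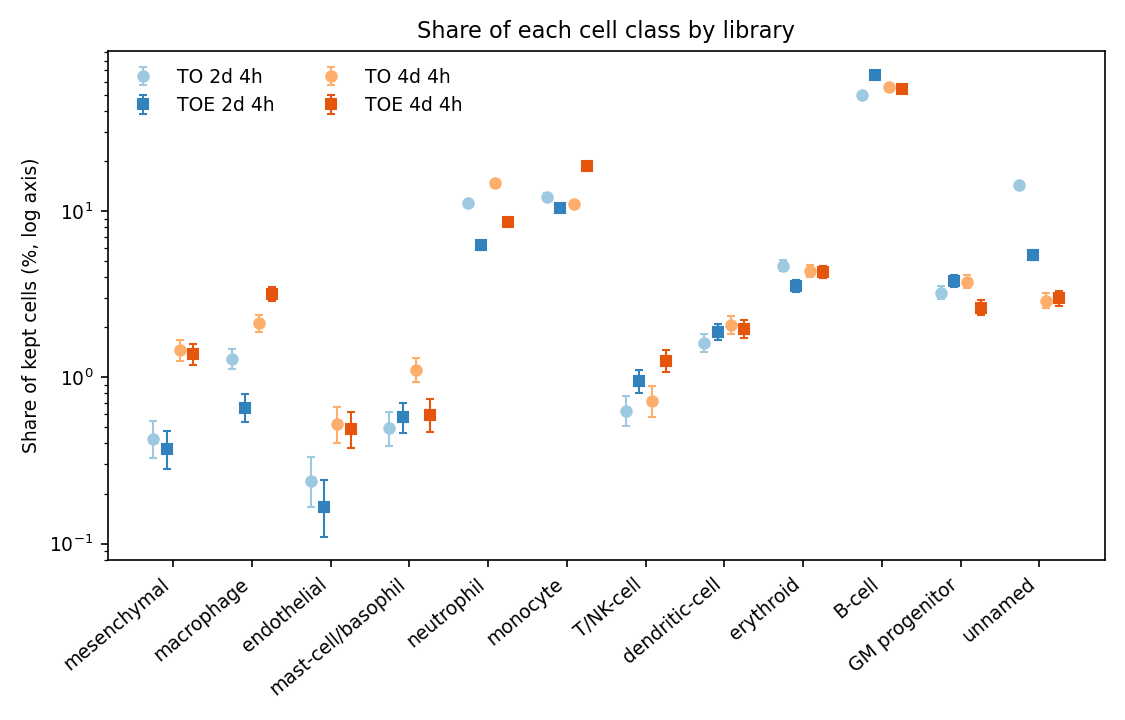
Share of kept cells in each cell class (percent, log axis), one point per library with its 95% Clopper-Pearson interval, which covers counting error only; colour gives the day and shape the arm. Mesenchymal-like cells lie at 0.426% and 0.370% on day 2 and at 1.45% and 1.38% on day 4, while B-cell-like cells overlap between the days.

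The make-up of the mesenchymal-like class, without the low-count cluster, differed between the days as well. Fibroblast-like cells, led by Col14a1, Dpt and Sfrp2, numbered 3 and 8 on day 2 and 126 and 31 on day 4, which was 4.76% and 13.3% of the class on day 2 and 70.8% and 16.8% on day 4. Both day 4 shares exceeded both day 2 shares, but the TO library held most of the difference, with a ratio of 14.9 in TO (4.97 to 73.0) and 1.26 in TOE (0.568 to 3.18), where counting error spans no change. At other hours such cells numbered 19 in TO_2d_0h, 4 in TOE_2d_24h and 0 in both TO_4d_24h and TOE_4d_24h. Osteoblast-like cells, whose main cluster was led by Bglap and then by Igha and Jchain, genes of plasma cells, numbered 23 and 29 on day 2 and 18 and 43 on day 4, and their share of the class was 36.5% and 48.3% on day 2 and 10.1% and 23.4% on day 4. Their ratio was 0.277 in TO and 0.484 in TOE. The cluster led by Cxcl12, C6 and Lepr, genes of marrow stroma, numbered 7 and 6 cells on day 2 and 2 and 1 on day 4. In its TOE cells the name marrow-stromal-like did not hold, since Cxcl12 was at 8177 CPM in TO_2d_4h but at 496 CPM in TOE_2d_4h, where Bglap was at 9262 CPM, and the 1 cell of TOE_4d_4h had 1 UMI of Cxcl12. Chondrocyte-like cells, the cartilage cells, went opposite ways in the arms, with 9 and 6 on day 2 and 2 and 38 on day 4. They were led by Edil3, Comp, Hapln1 and Acan, but Col2a1, the defining collagen of cartilage, had no UMI in them in any of the 4 libraries, and Col1a1 was at 24362 to 56532 CPM. Of the cells without a state, 15 in TOE_4d_4h and 1 in TO_2d_4h were led by haemoglobin genes and 5 in TOE_4d_4h, 2 in TO_2d_4h and 1 in TO_4d_4h by Mcpt8 and other mast-cell and basophil proteases, so that some cells with leading genes of other classes were counted as mesenchymal-like.

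**Figure D2:**
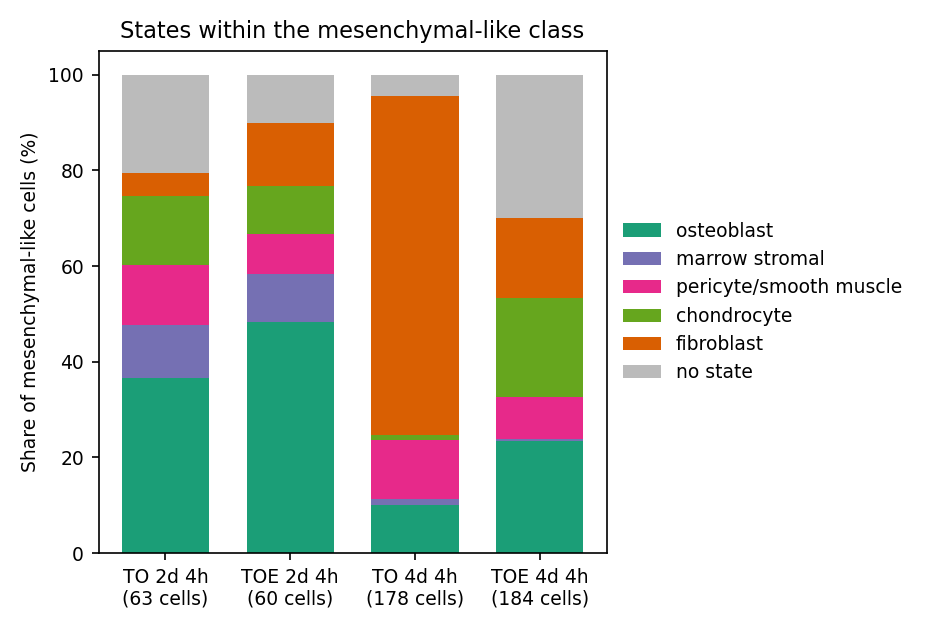
Make-up of the mesenchymal-like class in each library, as stacked percentages of its cells (63, 60, 178 and 184 cells) by state. Fibroblast-like cells take 70.8% of TO_4d_4h and 16.8% of TOE_4d_4h, and osteoblast-like cells a smaller share of both day 4 libraries than of either day 2 library.

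Several collagen and bone genes of the class differed between the days by ratio, though none was called. All levels are counts per 1000000 UMIs of a class in a library (CPM). Col3a1, the type III collagen of early repair tissue, was at 3359 and 3512 CPM on day 2 and 10221 and 8164 CPM on day 4, which was 3.04-fold and 2.32-fold more with no overlap. Postn, a matrix protein of periosteum and healing tissue, was at 313 and 316 CPM on day 2 and 1213 and 998 CPM on day 4. Col1a1, the main collagen of bone, was at 61517 and 85098 CPM on day 2 and 28278 and 51191 CPM on day 4, so over the class it was lower in both day 4 libraries. Within osteoblast-like cells Col1a1 overlapped, at 132340 and 160660 CPM and then 126330 and 134560 CPM. It was lower in both arms within the cluster led by Cxcl12. Within fibroblast-like, chondrocyte-like, pericyte-like and stateless cells it was higher on day 4 in both arms. The part of the make-up of the class in its level was not tested. Bglap, which codes for osteocalcin, showed the smallest adjusted p of the class. It stood at 11251 and 23450 CPM on day 2 and 2530 and 6624 CPM on day 4, a log2 difference of -2.05 ± 0.15 (SE) with adjusted p = 0.216. Ibsp, or bone sialoprotein, was at 3688 and 2896 CPM on day 2 and 453 and 2225 CPM on day 4. Runx2, the transcription factor that sets osteoblast fate, was at 779 and 511 CPM on day 2 and 260 and 436 CPM on day 4. Alpl, the phosphatase needed for mineral, overlapped between the days, at 410 and 267 CPM and then 48.1 and 335 CPM.

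No gene of the mesenchymal-like class passed the test of day. The test was edgeR's quasi-likelihood fit with arm and day as terms, in which a gene counted as called when its Benjamini-Hochberg adjusted p was below 0.05 and its ratio had the same sign in both arms. Of 12249 genes tested, 0.0% were called, 1005 had an unadjusted p below 0.05, and DESeq2 called 54, of which 15 were higher and 39 lower on day 4. By ratio alone, with no test, 273 of 11614 genes, or 2.35%, differed by at least 2-fold the same way in both arms, 168 of them higher and 105 lower on day 4. Another 149 genes differed by at least 2-fold in opposite directions. With the arm as a term the fit left 1 residual degree of freedom. A fit of arm and day on 3 libraries has no residual degree of freedom, so each value given without a library came from day as the only term. A call lost there lost both a library and the arm term, and the part of each was not told apart. With all 4 libraries and day as the only term, 7 of the 95 calls followed by name in the other classes were kept, namely Col3a1 in erythroid-like, GMP-like and neutrophil-like cells, RGD1565566 in erythroid-like, GMP-like and T/NK-cell-like cells and Cmtm3 in neutrophil-like cells.

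Among the genes furthest apart in both arms, several had few or no UMIs on 1 of the days. Nkain2 had no UMI on day 2 and 20.0 and 17.4 CPM on day 4, at least 17.1-fold higher against a floor of 3 UMIs over both day 2 libraries. Gpr15lg had none on day 2 and 7.21 and 5.80 CPM on day 4 (at least 5.99-fold), and Tnfsf8, a ligand of the tumour necrosis factor family, had none and then 7.88 and 3.80 CPM (at least 5.49-fold). Il33, an alarm cytokine of stromal cells, stood at 3.37 and 35.9 CPM on day 2 and 483 and 104 CPM on day 4. Its level within the fibroblast-like cells was 38.7 and 147 CPM on day 2, from 3 and 8 cells, and 648 and 415 CPM on day 4. Rbfox1 and Nmu completed the 6 genes with the highest ratios, Rbfox1 at 0 and 6.37 CPM and then 40.6 and 20.8 CPM, and Nmu at 0.674 and 0 CPM and then 24.2 and 3.20 CPM. In the other direction, Dio2, which activates thyroid hormone, was at 24.3 and 23.9 CPM on day 2 and 0.839 and 2.40 CPM on day 4. Lepr, the leptin receptor that marks marrow stroma, was at 45.9 and 14.3 CPM on day 2 and 3.69 and 2.80 CPM on day 4. The complement gene C6, another gene that led the cluster of Cxcl12 and Lepr, was at 30.3 and 3.98 CPM and then 2.35 and 0.40 CPM. Dcc was at 16.2 and 12.0 CPM and then 0.336 and 1.80 CPM, and Tdrp at 14.8 and 9.56 CPM and then 1.01 and 2.80 CPM. Dmp1, a matrix protein of osteocytes, overlapped between the days at 119 and 362 CPM and then 3.36 and 173 CPM.

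Taken by list, the bone formation genes were lower on day 4 in both arms in 20 of 23 tested members and higher in none, with none called. Their median log2 difference was -1.32, from -2.25 in TO and -0.37 in TOE, against a median of 0.009 over all genes tested, of which 24.8% were lower in both arms. Their summed level was 2.06% and 3.20% of the class's UMIs on day 2 and 0.483% and 1.31% on day 4. Within the osteoblast-like cells alone the summed level was 4.54% and 6.10% on day 2 and 5.93% and 5.05% on day 4, and the list's median ratio was 0.05 in TO and 0.14 in TOE on the log2 scale. Bglap there was at 30395 and 47002 CPM on day 2 and 39071 and 32787 CPM on day 4, with overlap. The markers that named these cells, Bglap, Ibsp and Runx2 among them, all belong to the list. The level of the list within them was therefore partly fixed by how they were picked. Osteoblast-like cells were a smaller share of the class on day 4, though not fewer in TOE, with 29 and then 43 cells.

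Genes of the G2/M phase, which drive mitosis, were higher on day 4 in both arms in 27 of 30 members with a median log2 difference of 0.77, again with none called, where 32.6% of all genes were higher in both arms. Cks2, a cyclin-dependent kinase subunit, was at 101 and 90.0 CPM on day 2 and 157 and 171 CPM on day 4. Mki67, the proliferation antigen, was at 119 and 94.0 CPM on day 2 and 196 and 113 CPM on day 4, with overlap. The list of fibrillar collagens and matrix assembly had 23 of 43 members higher and 8 lower in both arms, and its median was 0.32. Over the class as a whole, abundant members were among the lower ones, with Col1a1 as given above. Col1a2 was at 30027 and 36215 CPM on day 2 and 16900 and 21927 CPM on day 4. Sparc was at 18156 and 24921 CPM and then 9822 and 16109 CPM, while Col3a1 was higher on day 4. Marrow niche factors, which hold blood-forming cells in the marrow, had 8 of 16 members lower and 2 higher, with a median of -0.46. Cxcl12, the chemokine that retains stem cells, had nearly the same ratio in both arms, at 743 and 106 CPM on day 2 and 128 and 18.6 CPM on day 4, yet the days overlapped because the TO libraries had more than the TOE libraries on each day. A few cells held much of it in TO, since 1063 of 1102 UMIs in TO_2d_4h came from 7 cells of the cluster led by Cxcl12 and 322 of 764 in TO_4d_4h from 2. TGF-beta and BMP signalling had 15 of 30 members lower and 5 higher with a median of -0.35, and matrix proteases and their inhibitors had a median of 0.25. With the low-count cluster led by Jchain added to the class, the medians were -0.88 for bone formation, 0.31 for G2/M, 0.76 for the collagen and matrix list, 0.54 for proteases, -0.036 for niche factors and 0.020 for TGF-beta and BMP signalling.

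**Figure D3:**
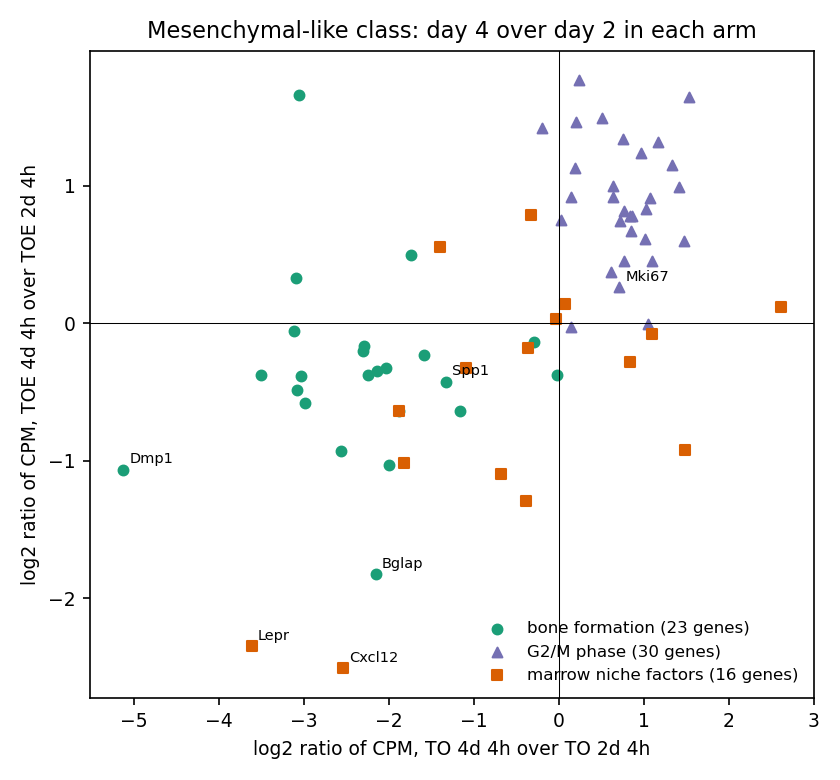
Log2 ratio of day 4 over day 2 in mesenchymal-like cells, TO on the horizontal axis and TOE on the vertical axis. Points are the tested members of the bone formation, G2/M phase and marrow niche lists. Most bone formation genes lie below 0 in both arms (list medians, not drawn, -2.25 in TO and -0.37 in TOE). Most G2/M genes lie above 0 in both.

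Col3a1 was called as higher on day 4 in 8 of the 9 classes in which it was tested, all of them outside the stroma, while in the mesenchymal-like class its higher level, given above, was not called. In B-cell-like cells, which do not make collagen, it was at 1.83 and 2.82 CPM on day 2 and 28.0 and 24.3 CPM on day 4 (log2 difference 3.46 ± 0.34, adjusted p = 5.65e-09). A Col3a1 UMI was found in 1.06% and 1.73% of B-cell-like cells on day 2 and in 16.4% and 12.5% on day 4. It was at 3.22 and 4.49 CPM and then 52.2 and 32.0 CPM in neutrophil-like cells (adjusted p = 0.000712), and at 2.29 and 2.24 CPM and then 31.2 and 21.5 CPM in monocyte-like cells (adjusted p = 0.00211). Erythroid-like cells had 3.63 and 3.07 CPM and then 48.5 and 29.7 CPM (adjusted p = 0.0252), and granulocyte-monocyte-progenitor-like (GMP-like) cells had 3.77 and 2.94 CPM and then 44.3 and 24.8 CPM (adjusted p = 0.00169). In T/NK-cell-like cells it went from no UMI to 34.7 and 21.8 CPM, at least 15.8-fold higher. No class overlapped between the days, and the log2 differences of the other 7 classes lay between 3.35 and 3.59. The call was lost without TO_4d_4h in the erythroid-like class (highest adjusted p = 0.176), without TOE_2d_4h in the monocyte-like class (0.0715) and without either day 2 library in the macrophage-like class (0.198), and was kept on leaving out each library in turn in the other 5.

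The proportion of Col3a1 to Col1a1 UMIs was higher on day 4 in blood cells as well as in stroma, but was not the same in both. Of the UMIs of both genes, Col3a1 made up 4.49% and 6.94% on day 2 and 32.2% and 17.8% on day 4 in B-cell-like cells. The same share was 5.14% and 5.65% and then 32.7% and 17.4% in monocyte-like cells, and 5.18% and 3.96% and then 26.5% and 13.8% in mesenchymal-like cells. On day 4 the share in the mesenchymal-like class lay below that in B-cell-like cells beyond counting error, with exact 95% intervals of 26.4% to 26.7% against 30.7% to 33.7% in TO_4d_4h and 13.6% to 13.9% against 16.8% to 18.8% in TOE_4d_4h. In TO_4d_4h it reached 36.0% in neutrophil-like and 39.4% in T/NK-cell-like cells, the second from 28 and 43 UMIs. Over whole libraries, Col3a1 was at 45.0 and 34.6 CPM on day 2 and 548 and 328 CPM on day 4. In the libraries of other hours it ranged from 33.1 CPM in TO_4d_24h to 1183 CPM in TOE_2d_24h, so the order of these 4 libraries was not a steady course over days.

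Other genes of the matrix list were also called outside the stroma. In B-cell-like cells the list of fibrillar collagens and matrix assembly had 14 of 42 members called, all upward, where 0.238% of all genes tested were called, and a median log2 difference of 1.17 against 0.005 over all genes tested. Col6a2, a chain of type VI collagen, was at 0.418 and 0.174 CPM on day 2 and 2.85 and 3.44 CPM on day 4 (adjusted p = 0.000108). Postn was at 0.278 and 0.232 CPM and then 2.78 and 2.46 CPM (adjusted p = 0.000169). The median of the list was 1.99 in neutrophil-like, 1.48 in erythroid-like, 1.38 in monocyte-like, 1.23 in GMP-like, 1.04 in dendritic-cell-like and 0.71 in macrophage-like cells, while its median in the mesenchymal-like class was 0.32. In neutrophil-like cells 4 of 28 members were called upward (0.112% of all genes called), and in macrophage-like cells Col3a1 rose while Thbs1 fell (0.102% called). The summed level of the list in macrophage-like cells was 0.172% and 0.141% of UMIs on day 2 and 0.174% and 0.180% on day 4, so that class held more of it than B-cell-like cells and hardly differed between the days in TO. In B-cell-like cells the summed level of the list was 0.0186% and 0.0170% of UMIs on day 2 and 0.0290% and 0.0395% on day 4. The whole-library level of Col3a1 and the number of fibroblast-like cells were higher on day 4 in both arms, and higher in TO_4d_4h than in TOE_4d_4h. Of the Col3a1 UMIs of the mesenchymal-like class, fibroblast-like cells held 55995 of 60938 in TO_4d_4h but 11495 of 40840 in TOE_4d_4h. In TOE_4d_4h chondrocyte-like cells held 14630 and cells without a state 12252. The part of foreign RNA in the values outside the stroma was not tested.

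**Figure D4:**
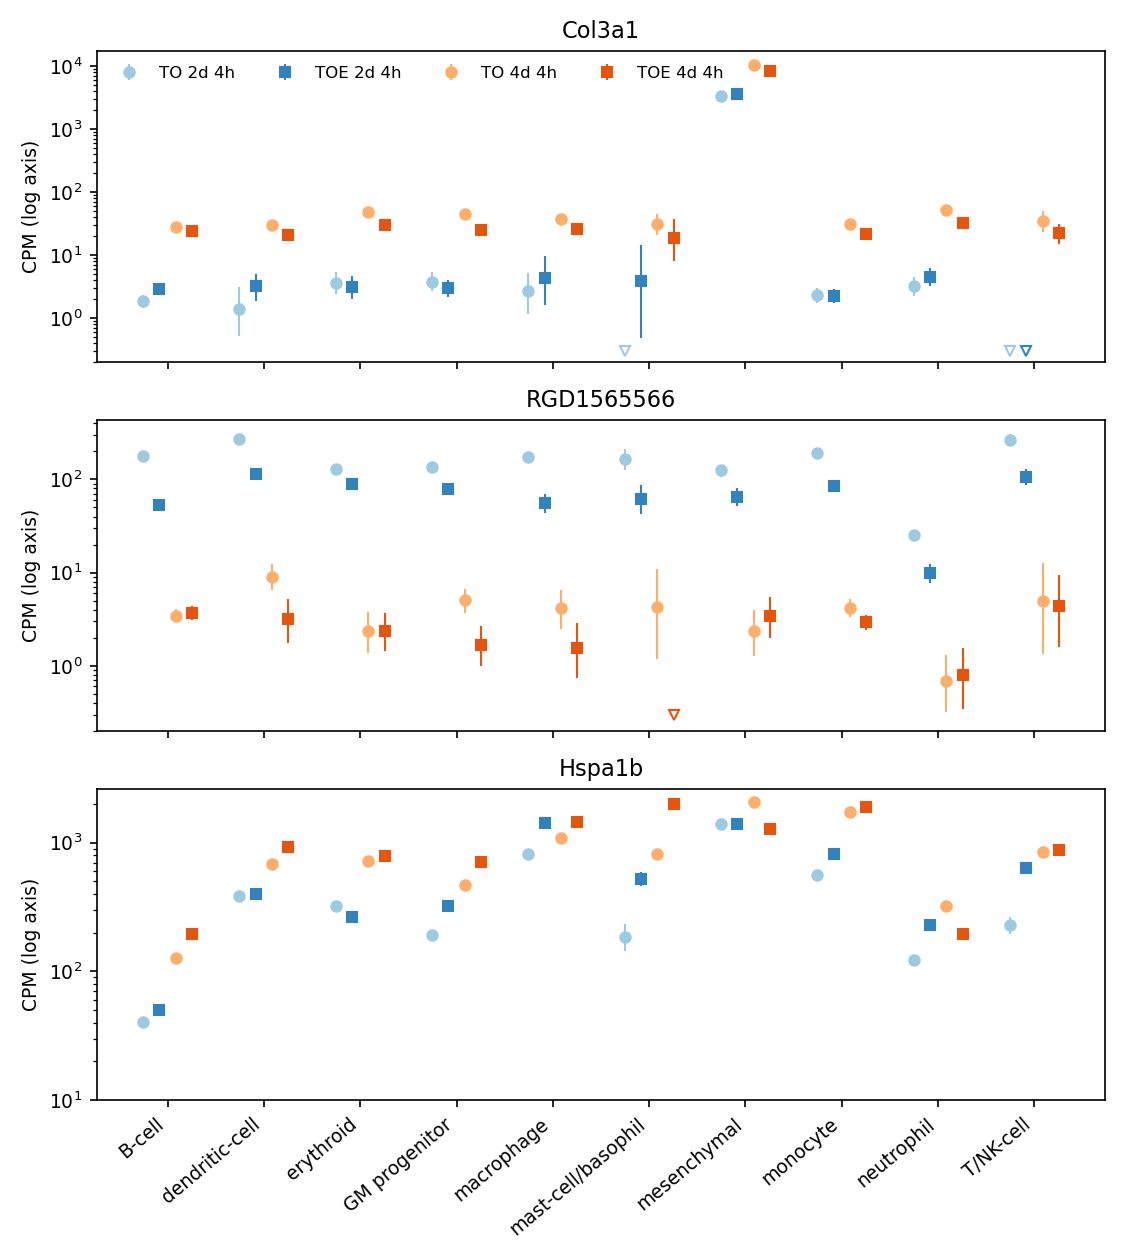
CPM (log axis) of Col3a1, Hspa1b and RGD1565566 in each class, one point per library; open downward triangles at the bottom mark a library with no UMI. Col3a1 is higher in both day 4 libraries in every class shown, RGD1565566 lower, and Hspa1b overlaps between the days in mesenchymal-like, macrophage-like and neutrophil-like cells.

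Macrophage-like cells, a class of 191 and 106 cells on day 2 and 258 and 421 on day 4, had 12 genes called, 6 in each direction. These were 0.102% of the genes tested, and 0.883% differed by at least 2-fold the same way in both arms. Vcam1, an adhesion molecule of resident marrow macrophages, was at 117 and 173 CPM on day 2 and 34.1 and 33.0 CPM on day 4. It fell by 2.01 ± 0.20 on the log2 scale (adjusted p = 0.0124) with no overlap. Hpgds, which makes prostaglandin D2, was at 120 and 162 CPM and then 38.0 and 18.6 CPM (log2 difference -2.29 ± 0.29, adjusted p = 0.0259). Il1b, the inflammatory cytokine, was at 272 and 295 CPM and then 100.4 and 105 CPM (-1.38 ± 0.18, adjusted p = 0.0259), so the arms agreed closely on each day. Slc10a6, a steroid sulphate transporter, was at 137 and 128 CPM and then 55.5 and 33.6 CPM (-1.53 ± 0.20, adjusted p = 0.0259). Thbs1, the matrix protein thrombospondin 1, was at 11.6 and 172 CPM and then 2.62 and 52.9 CPM (-1.70 ± 0.24, adjusted p = 0.0444). Its days overlapped because each TOE library had far more than the TO library of its day, and it was lower on day 4 in both arms. The fit without TOE_2d_4h gave 1.34, a value that sets TO_2d_4h against both arms of day 4 and so holds the difference between the arms.

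Among 22 tested members of the list of acute inflammatory cytokines and chemokines, Il1b alone fell, and 13 were lower on day 4 in both arms against 33.9% of all genes in this class. The rises were mostly genes of neutrophil granules. Camp, the cathelicidin, was at 119 and 85.1 CPM on day 2 and 323 and 226 CPM on day 4 (log2 difference 1.5 ± 0.18, adjusted p = 0.0246). Ngp, a neutrophil granule protein, was at 111 and 67.1 CPM and then 300.4 and 178 CPM (1.5 ± 0.18, adjusted p = 0.0246). Retnlg was at 17.6 and 6.49 CPM and then 72.9 and 40.4 CPM (2.29 ± 0.26, adjusted p = 0.0225), and Lcn2, which binds bacterial iron carriers, at 20.6 and 33.2 CPM and then 54.4 and 85.4 CPM (1.46 ± 0.21, adjusted p = 0.0461). Of 22 members of the granule list, 18 were higher in both arms, against 20.2% of all genes, and these 4 were called. Each was at least 10 times higher in neutrophil-like cells, where Ngp was at 19821 and 15487 CPM and then 21300 and 25199 CPM. Ngp in B-cell-like cells was at 90.4 and 63.6 CPM and then 140 and 153 CPM. The part of such foreign RNA in the macrophage-like values was not tested. Gsta1, a glutathione transferase, was at 15.6 and 3.61 CPM and then 64.0 and 38.5 CPM (2.45 ± 0.32, adjusted p = 0.0283). The 33 tested genes of scavenging, lipid and iron handling, the trade of marrow macrophages, had none called and a median of 0.22.

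With the low-count cluster led by C1qa added to the class, 96 genes were called and all 12 were among them. Of the 12, 10 lost the threshold without TO_2d_4h and 11 without TOE_2d_4h, and apart from RGD1565566, described with the other classes, every one was lost on leaving out at least 1 library. The highest adjusted p on leaving out a library was 0.137 for Vcam1, 0.297 for Hpgds, 0.267 for Il1b, 0.304 for Slc10a6, 0.502 for Camp, 0.78 for Ngp and 0.502 for Gsta1. All of these kept their direction.

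**Figure D5:**
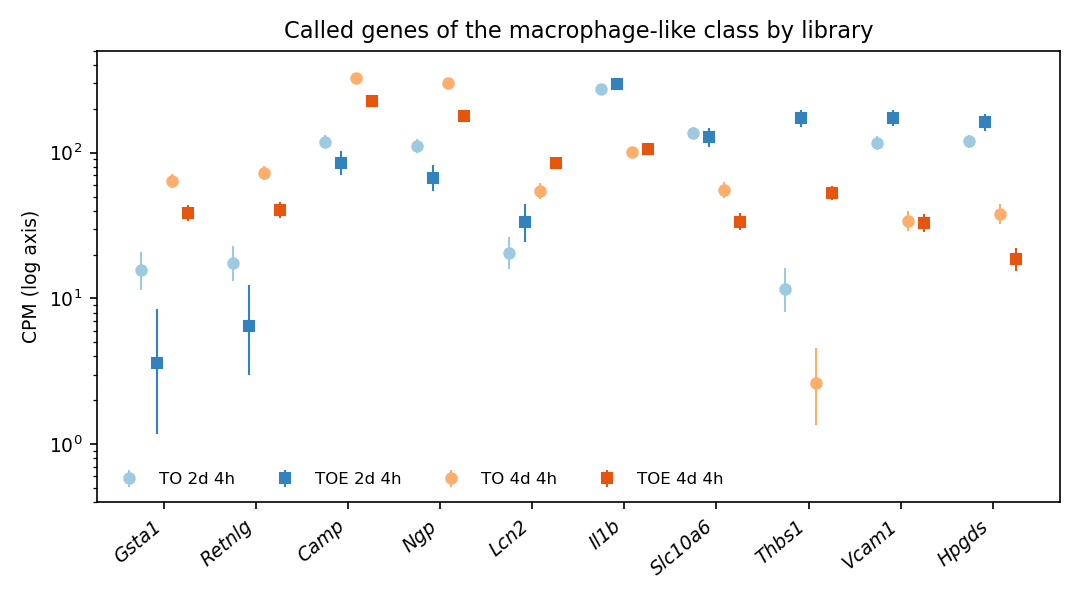
CPM (log axis) in macrophage-like cells of genes called between the days, one point per library. Vcam1, Hpgds, Il1b and Slc10a6 are lower in both day 4 libraries, Camp, Ngp, Retnlg, Lcn2 and Gsta1 higher, and Thbs1 overlaps between the days.

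Heat shock chaperones keep proteins folded under stress. The list of 22 genes had 1 to 4 calls in each of 7 of the 10 classes tested, and every one of those calls was a rise. Over all genes 0.0235% to 0.593% were called in those classes and rises outnumbered falls among all calls in several of them, as with 34 against 8 in B-cell-like cells. The list had none in erythroid-like, macrophage-like or mesenchymal-like cells, and a difference between classes was not tested. Its inducible members come under the control of heat shock factor, which binds repeats of the letters GAA and TTC a few bases apart. RefSeq promoter windows (GRCr8 build, 250 bases before to 50 after the start) were at hand for 18 of the 22 members and for 5 of the 7 that were called. The letters GAANNTTC, searched on both strands, were in 10 of these 18 windows (55.6%) and in 8.59% of all 33469 windows. TTCNNGAA, which overlaps it where repeats follow each other, was in 7 of 18 (38.9%) and 8.77% of all. Stretches of 120 bases that end just before the start hold such letters in 3 of the called members, and are shown with them in capitals to let the repeats be seen.
Hsph1, chr12:10427248-10427367, plus strand: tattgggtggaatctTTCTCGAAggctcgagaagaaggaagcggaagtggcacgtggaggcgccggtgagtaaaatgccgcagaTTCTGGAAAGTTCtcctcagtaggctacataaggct
Dnajb1, chr19:41431142-41431261, minus strand: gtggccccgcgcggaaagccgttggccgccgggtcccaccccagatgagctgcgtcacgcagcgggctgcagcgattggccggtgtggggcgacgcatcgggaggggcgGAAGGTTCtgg
Hspb1, chr12:26432302-26432421, minus strand: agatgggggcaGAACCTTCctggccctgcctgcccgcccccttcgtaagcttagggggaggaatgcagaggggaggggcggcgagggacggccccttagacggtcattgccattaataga
The Hsph1 stretch holds 3 matches, of which a pair share letters. The window of Hspa1a held none. CCAAT was in 9 of 18 (50%) and 37.5% of all windows. A match is a run of letters and not evidence of binding.

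Hspa1b, an inducible Hsp70, rose in 5 classes. In B-cell-like cells it was at 40.6 and 49.9 CPM on day 2 and 127 and 196 CPM on day 4 (log2 difference 1.77 ± 0.23, adjusted p = 7.83e-06). Mast-cell/basophil-like cells had 184 and 522 CPM and then 822 and 1999 CPM (2.06 ± 0.21, adjusted p = 0.0128). GMP-like cells had 192 and 323 CPM and then 469 and 707 CPM (1.25 ± 0.11, adjusted p = 0.0259). The days did not overlap in any of these, nor in dendritic-cell-like cells (385 and 401 CPM, then 683 and 925 CPM, adjusted p = 0.0345) or T/NK-cell-like cells (229 and 631 CPM, then 852 and 884 CPM, adjusted p = 0.00889). Monocyte-like cells had 558 and 810 CPM and then 1744 and 1901 CPM with adjusted p = 0.0525. In macrophage-like cells the days overlapped, at 822 and 1409 CPM and then 1086 and 1451 CPM, as they did in mesenchymal-like cells at 1389 and 1395 CPM and then 2059 and 1274 CPM. On day 2 both of these classes already had more Hspa1b than B-cell-like, neutrophil-like and GMP-like cells had on day 4. Hspa1a and Hspa1b are near-identical copies whose reads counting may split, so their values are uncertain one by one. Hspa1a rose in B-cell-like, dendritic-cell-like, neutrophil-like and T/NK-cell-like cells, and in neutrophil-like cells it was at 217 and 281 CPM and then 676 and 613 CPM (1.45 ± 0.19, adjusted p = 0.0138).

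Partners of Hsp70 rose in single classes. Hsph1, its nucleotide exchange factor, whose promoter is shown above, was at 319 and 247 CPM on day 2 and 715 and 560 CPM on day 4 in neutrophil-like cells (adjusted p = 0.0269). Dnajb1, its J-domain helper, was at 108 and 126 CPM and then 214 and 220 CPM in dendritic-cell-like cells (adjusted p = 0.0438), where Bag3, a co-chaperone, was at 93.0 and 80.6 CPM and then 182 and 160 CPM (adjusted p = 0.0342). Hsp90aa1, the inducible Hsp90, was at 1864 and 1698 CPM and then 3016 and 4099 CPM in B-cell-like cells (adjusted p = 0.0196). The small chaperone Hspb1 rose in B-cell-like, monocyte-like and T/NK-cell-like cells, and in monocyte-like cells was at 4.78 and 8.69 CPM and then 18.4 and 27.0 CPM (adjusted p = 0.0356). The median of the list was 0.49 in B-cell-like, 0.56 in neutrophil-like, 0.38 in monocyte-like, 0.32 in T/NK-cell-like and 0.24 in dendritic-cell-like cells. It was 0.15 in mesenchymal-like cells and -0.07 in macrophage-like cells, where 8 of 19 members were lower in both arms, not far from the 33.9% of all genes. Each heat shock call was lost on leaving out at least 1 library and kept its direction. In B-cell-like cells the calls were lost without TOE_2d_4h (adjusted p = 0.0929 for Hspa1b, and a highest adjusted p = 0.127 for Hspa1a and adjusted p = 0.353 for Hspb1), and all but that of Hspa1b also without TOE_4d_4h. The dendritic-cell-like calls were lost without TOE_4d_4h, and the neutrophil-like ones without TO_4d_4h or TOE_4d_4h. In GMP-like cells Hspa1b was lost without TO_2d_4h or TOE_4d_4h, and in mast-cell/basophil-like cells without TO_2d_4h (adjusted p = 0.181). The T/NK-cell-like calls were lost without TO_2d_4h or TO_4d_4h, and those of Hspa1a and Hspa1b there also without TOE_4d_4h. Hspb1 in monocyte-like cells lost its call without any one library.

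The dendritic-cell-like class was a cluster led by Siglech and Flt3, with Meis1 and Runx2 among its leading genes. It had 13 genes called, 10 upward and 3 downward (0.105% of those tested, with 0.382% past 2-fold in both arms). Beside the chaperones, Hmox1, Cxcl1, Ifi27, Isg15 and Spp1 rose. Hmox1, which breaks down haem, was at 4.65 and 12.6 CPM on day 2 and 18.1 and 32.1 CPM on day 4 (log2 difference 1.62 ± 0.28, adjusted p = 0.0345). Cxcl1, a neutrophil-attracting chemokine, was at 7.44 and 14.8 CPM and then 24.9 and 34.5 CPM (adjusted p = 0.0345), and Ifi27, an interferon-stimulated gene, at 20.2 and 75.0 CPM and then 80.9 and 120 CPM (adjusted p = 0.0384). Isg15, another interferon-stimulated gene, came from 2 UMIs on day 2 and 50 on day 4, a ratio of 26.5 with a counting interval of 6.96 to 225 (adjusted p = 0.0345). Only these 2 of 34 tested interferon-stimulated genes rose, and the median of the list was 0.10. Spp1, or osteopontin, was at 4.42 and 7.04 CPM and then 15.4 and 28.7 CPM (adjusted p = 0.02), and in macrophage-like cells Spp1 was at 4208 and 2700 CPM and then 5629 and 5112 CPM. Spata33 fell from 13.3 and 9.45 CPM to 0.678 and 1.48 CPM (-3.31 ± 0.52, adjusted p = 0.02). Immediate-early genes, the first to answer a stimulus, were higher in both arms in 26 of 28 members with none called, against 20.2% of all genes in this class. Of the 13 calls, 10 were lost without TOE_4d_4h, Isg15, Hmox1, Cxcl1, Ifi27 and Spp1 among them, and Spata33 kept its call on each leave-out (highest adjusted p = 0.0307) but not with DESeq2.

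T/NK-cell-like cells, the lymphocytes of cell-borne immunity, had the most calls for the number of genes tested, 51 or 0.593%, with 29 up and 22 down, and 0.576% of genes past 2-fold in both arms. The class held 93 and 154 cells on day 2 and 88 and 168 on day 4. The fit moderates the spread of each gene across genes, here fully, with infinite prior degrees of freedom against 3.94 in the mesenchymal-like class. Numbers of calls were therefore not comparable between classes. Il23r, the receptor for interleukin 23, was at 6.73 and 7.69 CPM on day 2 and 63.2 and 34.2 CPM on day 4 (log2 difference 2.61 ± 0.46, adjusted p = 1.87e-05). Arhgef28 was at 10.8 and 2.88 CPM and then 54.6 and 21.8 CPM (2.48 ± 0.51, adjusted p = 0.00101). Among genes of natural killer cells, Ly49s5, a killer-cell receptor, was at 40.4 and 60.6 CPM and then 26.0 and 9.46 CPM (-1.67 ± 0.38, adjusted p = 0.00472). Gzma, the protease granzyme A, was at 31.0 and 74.0 CPM and then 0 and 31.3 CPM (adjusted p = 0.00117), and its days overlapped. Gzma was the 1 called member of 18 tested in the list of cytotoxic and cytokine genes, whose median was -0.15. The netrin gene Ntn1 was at 24.2 and 27.9 CPM and then 2.48 and 5.82 CPM (-2.56 ± 0.61, adjusted p = 0.00889), and Aoah, which inactivates endotoxin, at 22.9 and 51.0 CPM and then 6.2 and 15.3 CPM (adjusted p = 0.0186).

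Many of the T/NK-cell-like calls were genes of other cells, and 23 of the 51 were at least 10 times higher in another class. Cd74, the invariant chain of antigen presentation, was at 31.0 and 54.8 CPM on day 2 and 404 and 124 CPM on day 4 (2.32 ± 0.27, adjusted p = 1.52e-14), and the MHC class II genes RT1-Da and RT1-Ba rose beside it (adjusted p = 0.000662 and adjusted p = 0.00446). RT1-Da was at 5.39 and 19.2 CPM and then 117 and 21.8 CPM, and RT1-Ba at 5.39 and 13.5 CPM and then 70.7 and 21.8 CPM. Both thus rose mostly in TO. Of 8 tested MHC class II genes, these 3 with Cd74 were called and 6 were higher in both arms, against 25.8% of all genes. Cd74 in dendritic-cell-like cells was at 1308 and 1804 CPM and then 2411 and 2060 CPM. Apoe, a lipid carrier of macrophages, was at 9.43 and 2.88 CPM in T/NK-cell-like cells and then 145 and 37.1 CPM (3.77 ± 0.44, adjusted p = 2.41e-14), and at 6147 and 3375 CPM and then 7476 and 7534 CPM in macrophage-like cells. Cxcl1 and Hspb1 were the other leading rises. Among the called genes, the B-cell genes Pax5, Blnk and Fcrla fell, mostly in TOE. Their log2 ratios were -0.59, -0.33 and -0.22 in TO and -1.66, -2.19 and -2.41 in TOE. Pax5 was at 67.3 and 78.8 CPM and then 44.6 and 24.8 CPM (adjusted p = 0.0398), and at 741 to 929 CPM in B-cell-like cells. The part of doublets or foreign RNA in these values was not tested, and with doublets kept the class had 5 calls. Of 24 calls followed by name in this class, 4 were kept on each leave-out, namely Cd74, Apoe, Col3a1 and RGD1565566. Cd74, RT1-Da, RT1-Ba and Il23r were among the calls lost with doublets kept and with DESeq2, and Col3a1 was lost with DESeq2. Il23r and Cxcl1 lost the call without TO_4d_4h (adjusted p = 0.0897 for Il23r). RT1-Da and RT1-Ba lost it without TO_2d_4h or TO_4d_4h, Arhgef28 without TO_4d_4h or TOE_2d_4h, and Ly49s5 and Blnk without TOE_2d_4h or TOE_4d_4h. Gzma lost it without TO_2d_4h, TO_4d_4h or TOE_2d_4h, Aoah and Fcrla without any library but TO_2d_4h, and Ntn1 and Pax5 without any one of the 4. The log2 difference of RT1-Da went from 1.95 to 0.77 without TO_4d_4h. DESeq2 called 3 genes in this class.

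B-cell-like cells, the largest class, had 42 genes called, 34 up and 8 down (0.238% of those tested, with 1.14% past 2-fold in both arms). Of the rises, 21 were at least 10 times higher in mesenchymal-like cells, and 10 of the 42 had provisional symbols. Eps8l3 was at 0.0464 and 0.0435 CPM on day 2 and 2.30 and 0.344 CPM on day 4 (adjusted p = 0.000779). The matrix genes Thbs2, Mfap5, Col6a2 and Tnc completed the largest rises with Col3a1. Apoe was at 9.58 and 4.89 CPM and then 20.4 and 35.1 CPM (1.92 ± 0.34, adjusted p = 0.00133). Falls among B-cell genes were few. The immunoglobulin light chain segment Igkv28 was at 1.88 and 2.68 CPM and then 0.219 and 0.492 CPM (adjusted p = 0.00204), and Try10, a trypsin gene, at 11.3 and 7.73 CPM and then 2.72 and 2.61 CPM (adjusted p = 0.00733). Of 27 tested genes of B cell development, none was called and the median was -0.07. Of the 21 B-cell-like calls followed by name, 19 were lost without TOE_2d_4h, and Col3a1 and RGD1565566 were kept on each leave-out. Eps8l3 lost its call also without TO_2d_4h and TO_4d_4h, Igkv28 without TO_4d_4h (highest adjusted p = 0.387) and Try10 without TO_4d_4h or TOE_4d_4h (highest adjusted p = 0.40).

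Neutrophil-like cells, the granulocytes that arrive first at a wound, had 14 genes called, 9 up and 5 down (0.112%, with 0.649% past 2-fold in both arms). Cmtm3, a chemokine-like membrane protein, came from 8 UMIs on day 2 and 291 on day 4, or 0.487 and 0.374 CPM and then 12.3 and 12.9 CPM (4.87 ± 0.43, adjusted p = 0.000731), and kept its call on each leave-out (highest adjusted p = 0.026) but, like every call of the class, not with the stricter cell filter. Car5b, a mitochondrial carbonic anhydrase, was at 14.6 and 11.7 CPM and then 51.2 and 38.5 CPM (1.82 ± 0.21, adjusted p = 0.00635), and was lost without TO_4d_4h or TOE_4d_4h. The matrix genes Postn, Bgn and Serpinh1 rose beside Col3a1, and Postn came from 2 UMIs on day 2 and 63 on day 4. Of 22 tested granule genes 13 were higher in both arms, where 17.1% of all genes were, none was called and the median was 0.20. Monocyte-like cells had 6 genes called, 3 each way (0.0402%, with 0.756% past 2-fold). Cklf, a chemokine-like factor, was at 45.4 and 69.1 CPM and then 98.6 and 160 CPM (1.18 ± 0.12, adjusted p = 0.0468), a call lost on leaving out any library. Genes of S phase were lower in both arms in 22 of 30 members in this class with a median of -0.25, and immediate-early genes higher in 23 of 28, with none called in either list. For comparison, 23.9% of all genes were lower and 24.7% higher in both arms there.

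Mast-cell/basophil-like cells had 4 genes called (0.063%, with 0.619% past 2-fold). Stfa2l3, a stefin of granulocytes, was at 7.89 and 5.84 CPM on day 2 and 103 and 286 CPM on day 4 (adjusted p = 0.0103), and Mmp8, the neutrophil collagenase, at 5.26 and 9.73 CPM and then 64.6 and 132 CPM (adjusted p = 0.024). Few cells carried these values on day 4, with a Stfa2l3 UMI in 5.88% and 3.80% of the class and an Mmp8 UMI in 11.03% and 10.13%, of 136 and 79 cells. Both were at least 10 times higher in neutrophil-like cells, where Mmp8 was at 2388 to 3210 CPM, and both lost the call without TOE_2d_4h (adjusted p = 0.0628). S100a8, a neutrophil gene that was not called, was at 7410 and 444 CPM and then 762 and 1602 CPM in the mast-cell/basophil-like class. GMP-like cells had 3 calls (0.0235%, with 0.525% past 2-fold), which were Col3a1, Hspa1b and RGD1565566. Erythroid-like cells had 2, Col3a1 and RGD1565566 (0.0166%, with 0.752% past 2-fold), and the haemoglobin and haem synthesis genes had none, with a median of 0.32 from -0.18 in TO and 0.74 in TOE.

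The most widespread fall was that of RGD1565566, a gene known by its provisional symbol, chosen for description after its values were seen. It fell in 9 of the 10 classes, by 4.46 to 5.45 on the log2 scale. In B-cell-like cells it was at 177 and 52.7 CPM on day 2 and 3.46 and 3.69 CPM on day 4 (adjusted p = 5.26e-14), and in mesenchymal-like cells, where it was not called, at 125 and 64.5 CPM and then 2.35 and 3.40 CPM. Both day 4 libraries lay far below both day 2 libraries in every class. RGD1565566 was also among the 10 leading genes of the unnamed cluster that held 1989 and 71 cells on day 2 and 1 and 3 on day 4. The part of foreign RNA in its values was not tested. Over whole libraries RGD1565566 was at 161 and 63.6 CPM on day 2 and 3.58 and 2.89 CPM on day 4. In the other libraries it was at 6.46 CPM in TO_2d_0h, 28.3 CPM in TOE_2d_24h, 63.3 CPM in TO_4d_24h and 45.0 CPM in TOE_4d_24h, so the low level was not shared by all libraries of day 4. LOC100360413 and LOC100911962, also picked after their values were seen, fell in 4 and 3 classes. LOC100360413 was at 1285 and 1583 CPM and then 682 and 320 CPM in B-cell-like cells (adjusted p = 4.48e-05). LOC100911962 came from 452 UMIs on day 2 and 2 on day 4 in monocyte-like cells, a ratio of 0.00383 with a counting interval of 0.000463 to 0.0139. RGD1565566 lost its call without TO_4d_4h in the erythroid-like and monocyte-like classes and without TO_4d_4h or TOE_4d_4h in the neutrophil-like class. LOC100360413 in the B-cell-like class lost its call without TO_2d_4h, TOE_2d_4h or TOE_4d_4h, and LOC100911962 in the monocyte-like class without TO_4d_4h or TOE_2d_4h.

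Across all genes of a class, the ratios of day 4 over day 2 in TO and in TOE were nearly unrelated, with Pearson r from -0.11 to 0.15 over the 10 classes, a description across genes, which are not independent. The number of genes past 2-fold the same way exceeded the number past 2-fold in opposite ways in 6 classes, among them 273 against 149 in mesenchymal-like and 99 against 58 in macrophage-like cells. It was the smaller number in the other 4, as with 86 against 132 in erythroid-like and 46 against 51 in T/NK-cell-like cells.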

How the data were processed

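Droplet-based single-cell RNA libraries of rat tibial marrow were analysed from the deposited tables of raw UMI counts per gene and barcode, which the authors made with Cell Ranger 9.0.0, with mRatBN7.2 and GRCh38 among the builds and Seurat and R 4.0.3 among the tools per the labels. How the human build was used is not given in the sources used here. The library TO_2d_24h was not analysed here. Barcodes with under 200 genes or over 20% mitochondrial UMIs were dropped, and those with a doublet score above 0.25 were removed (493 to 718 a library). All 8 libraries were clustered together with scanpy 1.11.5 (2000 variable genes, 30 components, 15 neighbours, Leiden resolution 1), without batch correction, and classes were named from marker genes. A cluster stayed unnamed with fewer than 3 raised markers, with more markers of another class than its own among its 10 leading genes, or with a median UMI count under that of its libraries divided by 3, a rule set after the data were seen whose effect is given beside the shares.

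UMIs were summed per library and class, and day 4 was tested against day 2 with edgeR 4.0.16 (quasi-likelihood test, TMM, filterByExpr by day, terms for arm and day) in each class with at least 50 cells in every library. Genes were called at a Benjamini-Hochberg adjusted p below 0.05 with the same sign of ratio in both arms. Past 2-fold means a CPM ratio of 2 or more the same way in both arms, with a prior of 0.5 UMI and at least 50 UMIs over the 4 libraries, and has no test. A day without UMIs was bounded by 3 UMIs over that day. Intervals cover counting error only, shares by Clopper-Pearson. In the fit with arm and day the residual was the day-by-arm difference, with 1 degree of freedom, moderated across genes. Each SE was worked back from the log2 difference and the F statistic of the quasi-likelihood test. Each condition was 1 library and TOE had had more sessions by day 4, so no p or SE measured the spread between animals of a condition. The check of the fit on simulated data, drawn with no difference between the arms, asked whether known log2 differences were recovered. It was not a test of the error rate of the calls in these data. The alternatives were other scaling, filters, doublet handling, clustering, naming of low-count clusters, DESeq2 1.42.0, day as the only term, and each library left out with day as the only term.

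Named genes were, in each class with calls, the 6 rises and 6 falls of largest fitted difference among called genes with at least 50 UMIs, without provisional symbols (LOC, AABR, RGD, ENSRNO) or mitochondrial and, outside the erythroid-like class, haemoglobin genes, up to 4 called members of each described list or else the 2 with most UMIs, class markers, and in the mesenchymal-like class the 6 furthest past 2-fold each way. Levels of a named gene in other classes, whole-library values and genes said to be picked after their values were seen lie outside that rule. The 22 gene lists, the members and the heat shock letters were chosen with earlier results of these data known. Promoter windows came from RefSeq on the GRCr8 build, which is not the build of the files.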

Additional observations from a re-analysis of the deposited data

Results flagged for a closer look

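Several measures moved in opposite directions in TO and TOE between day 2 and day 4, and none of these differences between the arms was tested, since each rests on 1 library a condition. The share of B-cell-like cells changed by a ratio of 1.12 in TO and 0.818 in TOE, though over named cells alone it was 0.984 and 0.797, and cycling pre-B-like cells within that class by 1.12 and 0.734. GMP-like cells had ratios of 1.16 and 0.690, and monocyte-like cells 0.898 and 1.79. Mesenchymal-like cells without a state had ratios of 0.218 and 2.99 within their class, and 15 of those in TOE_4d_4h were led by haemoglobin genes and 5 by mast-cell and basophil proteases. In mesenchymal-like cells the median log2 ratio of the cartilage genes was -1.32 in TO and 0.97 in TOE, beside 2 and 38 chondrocyte-like cells on day 4, and that of the interferon-stimulated genes was 0.85 and -0.85. The median of the G2/M genes in B-cell-like cells was 0.44 and -0.87.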

How the results depend on the processing

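Of 95 calls followed gene by gene, 84 were kept with RLE size factors, 87 with no filter on low counts, 56 with DESeq2, 58 with doublets kept, 67 with the stricter cell filter, 88 with the 4 libraries clustered alone, 95 with low-count clusters named by their markers and 75 at Leiden resolution 2. With day as the only term 7 were kept. With a library left out, day was the only term, so each such fit changed 2 things and a lost call cannot be put down to the library alone. Leaving out TO_2d_4h kept 59, TO_4d_4h 49, TOE_4d_4h 45 and TOE_2d_4h 45 of 94, and 15 were kept on each of these. Thbs1 in macrophage-like cells, lower on day 4 within both arms, went to 1.34 without TOE_2d_4h and to -4.94 without TOE_4d_4h in fits that mix the arms, and no other followed call changed sign. The lone library of a day is then assumed to vary like the other pair. The cause of the other changes was not tested. On leaving out each library in turn, the number of called genes ran from 2 to 210 in B, 5 to 57 in dendritic, 0 to 10 in erythroid, 8 to 66 in GMP, 1 to 33 in macrophage, 7 to 32 in mast, 0 to 212 in mesenchymal, 1 to 9 in monocyte, 3 to 93 in neutrophil and 14 to 100 in T/NK. With day as the only term it was 0 in B, 0 in dendritic, 0 in macrophage, 0 in mast, 0 in monocyte, 2 in neutrophil and 1 in T/NK. With no filter on low counts it was 70 in B, 72 in dendritic, 53 in erythroid, 194 in GMP, 172 in macrophage, 39 in mast, 13 in mesenchymal, 0 in monocyte and 83 in neutrophil. With DESeq2 it was 25 in B, 4 in dendritic, 4 in erythroid, 9 in GMP, 19 in macrophage, 54 in mesenchymal, 49 in monocyte and 3 in T/NK. With Leiden resolution 2 it was 21 in B, 35 in dendritic, 0 in erythroid, 48 in GMP, 186 in macrophage, 3 in monocyte and 4 in neutrophil. With RLE size factors it was 7 in dendritic, 47 in GMP, 87 in macrophage, 13 in mast and 14 in monocyte. With the 4 libraries clustered alone it was 21 in dendritic, 60 in GMP, 4 in mesenchymal and 3 in monocyte. With the stricter cell filter it was 0 in erythroid, 7 in GMP, 3 in macrophage, 9 in mast, 4 in mesenchymal, 3 in monocyte and 0 in neutrophil. With doublets kept it was 8 in GMP, 7 in macrophage, 16 in mast, 23 in monocyte, 3 in neutrophil and 5 in T/NK. With low-count clusters named by their markers (chosen after seeing the data) it was 96 in macrophage. With a minimum of 20 UMIs the genes past 2-fold in both arms numbered 365 in B, 141 in dendritic, 238 in erythroid, 202 in GMP, 215 in macrophage, 128 in mast, 502 in mesenchymal, 236 in monocyte, 200 in neutrophil and 155 in T/NK. With a minimum of 100 UMIs the genes past 2-fold in both arms numbered 105 in B, 18 in dendritic, 36 in erythroid, 30 in GMP, 59 in macrophage, 18 in mast, 63 in monocyte, 39 in neutrophil and 17 in T/NK. For shares, the log2 ratio ran on leaving out a library from -0.10 to 0.71 for T/NK, from 1.73 to 1.94 for mesenchymal and from 0.0039 to 0.85 for neutrophil. With the stricter cell filter it was 2.03 for mesenchymal. With the 4 libraries clustered alone it was 1.97 for mesenchymal. With low-count clusters named by their markers (chosen after seeing the data) it was 0.90 for mesenchymal and -7.48 for unnamed. With the unnamed cells left out of the total it was 1.73 for mesenchymal and 0.32 for neutrophil. With Leiden resolution 2 it was 0.32 for neutrophil. The median log2 difference of a list ran on leaving out a library from 0.88 to 1.63 for matrix in B, from 1.75 to 2.16 for matrix in neutrophil, from 1.29 to 1.57 for matrix in monocyte, from 1.57 to 1.87 for matrix in erythroid, from 1.35 to 1.72 for matrix in GMP, from 0.92 to 1.23 for matrix in dendritic, from 0.41 to 1.34 for matrix in macrophage, from 0.26 to 0.42 for matrix in mesenchymal, from 0.11 to 0.49 for heat shock in dendritic, from 0.69 to 0.86 for G2/M in mesenchymal, from -0.59 to -0.011 for niche in mesenchymal, from 0.22 to 0.39 for proteases in mesenchymal, from -0.63 to -0.27 for TGF-beta in mesenchymal, from -0.33 to -0.061 for inflammatory in macrophage, from 0.46 to 1.23 for granule in macrophage, from 0.0086 to 0.23 for granule in neutrophil, from 0.27 to 0.69 for immediate-early in dendritic, from 0.22 to 0.66 for immediate-early in monocyte and from 0.18 to 2.34 for MHC class II in T/NK. With no filter on low counts it was 1.79 for matrix in neutrophil, 1.96 for matrix in erythroid, 1.23 for matrix in macrophage, 0.38 for matrix in mesenchymal, -0.52 for niche in mesenchymal and 0.32 for proteases in mesenchymal. With doublets kept it was 1.83 for matrix in neutrophil, 1.48 for matrix in monocyte, 1.43 for matrix in erythroid, 1.12 for matrix in dendritic and 0.28 for granule in neutrophil. With Leiden resolution 2 it was 1.83 for matrix in neutrophil, 1.05 for matrix in GMP, -0.25 for inflammatory in macrophage and 0.30 for granule in neutrophil. With the 4 libraries clustered alone it was 1.69 for matrix in erythroid, 0.62 for G2/M in mesenchymal, -0.56 for niche in mesenchymal and 0.23 for granule in neutrophil. With the stricter cell filter it was 0.91 for matrix in dendritic, 0.84 for matrix in macrophage, 0.27 for matrix in mesenchymal and 0.19 for granule in neutrophil. With low-count clusters named by their markers (chosen after seeing the data) it was 0.76 for matrix in mesenchymal, 0.31 for G2/M in mesenchymal, -0.036 for niche in mesenchymal, 0.54 for proteases in mesenchymal and 0.020 for TGF-beta in mesenchymal. With day as the only term it was 0.22 for granule in neutrophil. With RLE size factors it was 0.19 for granule in neutrophil. With DESeq2 it was 0.19 for granule in neutrophil. The labels pair no libraries by animal, so the libraries were paired by arm through the arm term of the fit, with 1 library a condition. Small classes, and the 1 residual degree of freedom of the fit with arm and day, limit which differences a test could find.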

Other observations

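Some of the gene lists had no call in any of the 10 classes tested. Genes of hypoxia and glycolysis had class medians from -0.085 to 0.22 on the log2 scale, the integrated stress response from -0.16 to 0.44 and the mitochondrially encoded genes from -0.41 to 0.073. Glucocorticoid-responsive genes had a call in 2 classes and medians from -0.039 to 0.40. Over whole libraries Hspa1b was at 676 CPM in TO_4d_4h and 989 CPM in TOE_4d_4h, above the 150 to 386 CPM of the other 6 libraries, 24 h collections of day 4 included.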
